A study of Triticum aestivum with 18 samples.

Results

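In wheat roots grown without phosphate fertiliser, 102 of 61179 probe sets (0.167%) stood apart from every other nutrient treatment of the study. A probe set is a group of short oligonucleotides on the array that together report the level of 1 transcript or of closely related transcripts. The 102 members were chosen on the measured values themselves. In each, the lowest of the 3 low P arrays exceeded the highest of the other 15 arrays, the low P mean lay at least 1 log2 unit above the mean of the other 15, and the low P mean intensity was 200 or more. The level in low P roots, and any difference between low P and the other arrays, is therefore given as a description, with no test. The tests concern the 5 other groups, which the rule treats alike.

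Roots of the winter wheat (Triticum aestivum) cultivar Hereward were sampled at booting in 2011 from the Broadbalk field experiment at Rothamsted. The control group came from wheat with full nutrient supply, and the other groups received no phosphate (low P), no potassium (low K), no magnesium (low Mg), low nitrogen (low N) or no sulfate (low S). Per the labels, sulfur fertiliser ended in 2000 and the other nutrients were withheld from 1843. Each of the 6 groups had 3 samples, labelled as biological replicates and hybridised to 1 Affymetrix wheat array each. The labels do not say how many field plots stand behind a group, so plot and treatment cannot be told apart, and p-values measure the spread between the 3 samples, which may all come from 1 plot. The series text speaks of 12 samples, and 18 were analysed here. In bulk roots, fewer cells of a type and less RNA per cell cannot be told apart.

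Plants short of phosphate release a family of transcription factors, the PHR proteins, from the SPX proteins that hold them back while phosphate is plentiful. The genes that then rise include phosphate transporters of the root surface, secreted acid phosphatases that free phosphate from organic compounds, and enzymes that replace membrane phospholipids with sulfolipids and galactolipids. Late embryogenesis abundant (LEA) proteins and their subclass the dehydrins are best known from drying seeds and from tissues short of water, where they protect proteins and membranes and where many of them respond to abscisic acid.

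The annotation of the array names few of its transcripts. It gave a gene for 1273 probe sets and for 4 of the 102 members (3.92% of members and 2.08% of all probe sets). The 4 were LEA1, the dehydrin Rab15, and the genes LOC543084 and LOC543396, for which no other name was given. All other members are given by their probe set identifiers. None of the 102 could be identified as a phosphate transporter, an acid phosphatase or another gene of the phosphate response listed above, because the annotation names hardly any such gene.

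LEA1 (Ta.23797.1.S1_x_at, also listed as PMA2005) encodes a late embryogenesis abundant protein and was the second brightest member. Its low P arrays 1 to 3 read 14355, 12147 and 17245 intensity units. The control arrays read 4730, 7372 and 3278, the low K arrays 5175, 2920 and 2903, the low Mg arrays 5732, 6192 and 4647, the low N arrays 5722, 6175 and 5571, and the low S arrays 5583, 7601 and 11195. Low S array 3 came within reach of the lowest low P array, while low N and low Mg roots lay inside the control range. The low P mean was 1.44 log2 above the mean of the other 15 arrays.

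Rab15, a dehydrin responsive to abscisic acid, is represented by 3 probe sets, of which 1 (TaAffx.46097.2.S1_at) is a member. On it the low P arrays read 12364, 8993 and 11430, and the low N arrays read 6534, 6745 and 6488. The control arrays read 3087, 4943 and 2200, the low K arrays 4924, 1315 and 1648, the low Mg arrays 5604, 3541 and 3027, and the low S arrays 4950, 6207 and 4180. Low N roots were thus second and lay above all control arrays. However, low N minus control, 1.03 ± 0.39 log2 (SE, n = 3 each), did not pass limma's test (adjusted p = 0.309). This SE rests on the spread pooled over the groups fitted. The other Rab15 probe sets were brighter and moved less. Ta.2704.1.S1_at read 14409, 13337 and 15139 in low P roots, 11439, 11076 and 10269 in the control and 14372, 12869 and 14526 in low N roots, so low P and low N roots overlapped. Low P minus control was 0.39 ± 0.18 log2 on this probe set (adjusted p = 0.181) and 0.32 ± 0.16 log2 on Ta.2704.1.S1_x_at (adjusted p = 0.216), neither of which passed limma's test over 34255 probe sets. Probe sets of 1 gene therefore differed in whether the rule took them, and the x_at ending marks probes that can also hybridise with related transcripts.

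LOC543084 (Ta.727.1.S1_x_at) was the brightest member. It read 17200, 16998 and 20275 in low P roots, 10258, 13425 and 11961 in low S roots, 11328, 9902 and 7685 in low Mg roots and 7639, 10583 and 7103 in low N roots. The control arrays read 5302, 12036 and 3716 and the low K arrays 5589, 3424 and 2880. Control array 2 stood well above the other control arrays, inside the range of low S roots. LOC543396 (Ta.23659.1.S1_at) read 3998, 3737 and 4615 in low P roots and 2988, 2554 and 3072 in low N roots. Its low K arrays split, with array 1 at 2667 and arrays 2 and 3 at 848.5 and 796.8. The control arrays read 2220, 1749 and 1510, the low Mg arrays 1934, 1747 and 1479, and the low S arrays 2207, 2580 and 1491.

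**Figure D1:**
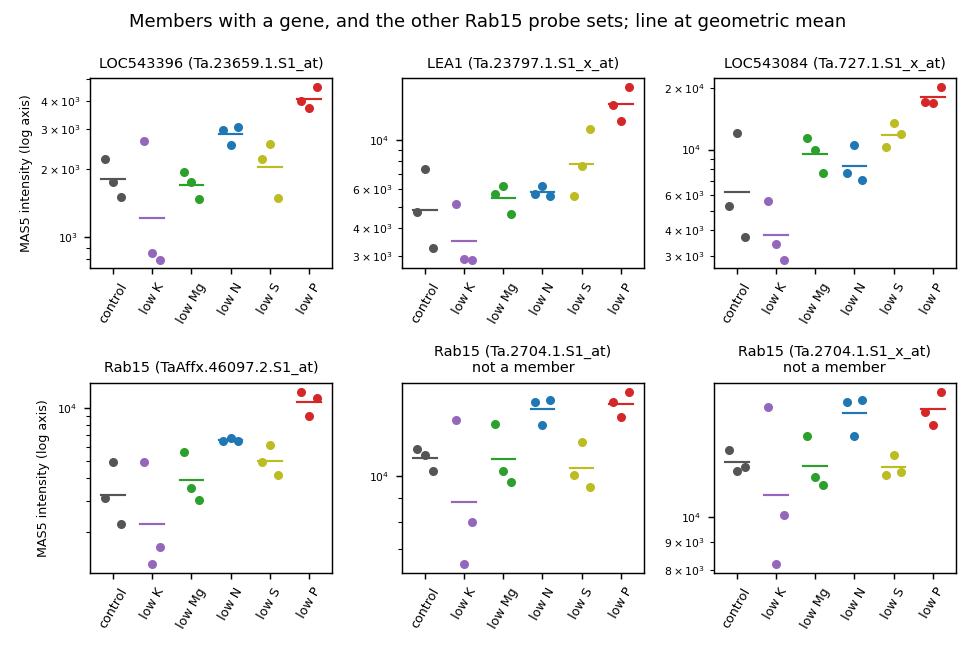
Intensity (log axis, MAS5 units) of the 4 members with an annotated gene and of the other Rab15 probe sets, by group, with 1 point per array in the order of replicates 1 to 3 and a line at the geometric mean. Low P arrays lie above all others in the 4 members, while on the other Rab15 probe sets low P and low N overlap.

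Across the 102 members the low P mean lay 1.01 to 4.42 log2 above the mean of the other 15 arrays, with a median of 1.38 and quartiles of 1.23 and 1.83. In 20 members it was 2 log2 or more above, and in 4 it was 3 or more. Low P mean intensities ran from 200.3 to 18158 with a median of 1175, and 56 members reached 1000. The median member read 420.1 in the control, 346 in low K, 546.1 in low Mg, 489.1 in low N and 518.9 in low S roots, each a mean of 3 arrays. The low P mean exceeded the next group mean by 0.44 to 3.59 log2 (median 0.85), and in 33 members it was at least 1 log2 above every other group mean.

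The distance between groups was often small at its closest point. The lowest low P array lay above the highest of the other 15 by 0.004 to 1.52 log2, with a median of 0.23. The 747 probe sets whose low P arrays exceeded all others made up 1.22% of the array, 223 of them also rose by 1 log2 or more, and the intensity limit left 102. At the rise threshold, the members just inside had 1.01, 1.024 and 1.033 log2 (Ta.28432.1.S1_at, Ta.14931.1.S1_at, TaAffx.121330.1.S1_at), and those just outside had 0.9953, 0.9923 and 0.9822 (Ta.4494.3.S1_x_at, Ta.9063.1.S1_x_at, Ta.28605.1.S1_at). At the intensity threshold, Ta.5886.1.S1_at, TaAffx.132274.1.A1_at and TaAffx.80034.1.S1_at had low P means of 200.3, 204.3 and 208.5, while TaAffx.64510.1.S1_at, Ta.26997.1.S1_at and TaAffx.75937.1.S1_at had 195.4, 181.7 and 175.7. At the overlap threshold, TaAffx.12097.1.A1_at, TaAffx.121330.1.S1_at and TaAffx.22836.1.S1_at cleared the highest other array by 0.0039, 0.0065 and 0.0068 log2. Ta.6110.1.S1_x_at, TaAffx.50319.1.S1_at and Ta.22442.1.S1_at missed it, at -0.00099, -0.0026 and -0.0051 log2. Membership near an edge therefore rests on differences far below the spread between arrays of a group. The same rule applied to each other group gave 36 probe sets for low K, 12 for low N, 9 for low S, 5 for low Mg and 0 for the control.

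The 10 members with the largest rise all lack a gene name, and 9 of them stayed at or below 500 intensity units on every array outside low P. The largest, TaAffx.50285.1.S1_at, read 209.6, 197.1 and 752.6 in low P roots against 3.357 to 68.62 (median 15.89) on the other 15 arrays, a rise of 4.42 log2. Ta.22406.1.S1_at read 591.1, 670.1 and 1927 against 4.344 to 307.2 (median 167.1), a rise of 3.45. In both, low P array 3 was far above the other low P arrays. Ta.5843.1.S1_x_at read 510.1, 296.8 and 627.7 against 4.082 to 270.3 (median 67.19), a rise of 3.41. TaAffx.104595.3.S1_at read 4405, 2599 and 6130 against 1.482 to 2565 (median 1081), a rise of 3.18. The last was the brightest of the 10. Its control arrays read 1.482, 1413 and 128.6, while low Mg array 2 at 2565 nearly reached the lowest low P array.

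Both probe sets of the root Ta.5972 were among the 10, with Ta.5972.1.A1_x_at at 526, 234.7 and 676 (other arrays 3.064 to 211.2, median 60.09, rise 2.94) and Ta.5972.1.A1_at at 410.5, 219.7 and 552.1 (5.617 to 183.7, median 64.33, rise 2.82). Ta.15219.1.S1_at read 654.1, 503.8 and 1048 (3.13 to 500, median 191.8, rise 2.81), so its lowest low P array barely cleared the others. TaAffx.80009.1.S1_at read 171.5, 276 and 215.2 (9.916 to 115.7, median 21.25, rise 2.92). This member had clear space between low P and all other groups, although its levels were low. TaAffx.50337.1.S1_at read 870.2, 308.4 and 502 (9.308 to 241.8, median 126, rise 2.56), and TaAffx.104834.1.S1_at read 218.2, 177.9 and 282.1 (1.843 to 154.1, median 77.35, rise 2.42). A value of a few intensity units cannot be told from background here, because detection calls were not used, so these rises are uncertain in size.

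**Figure D2:**
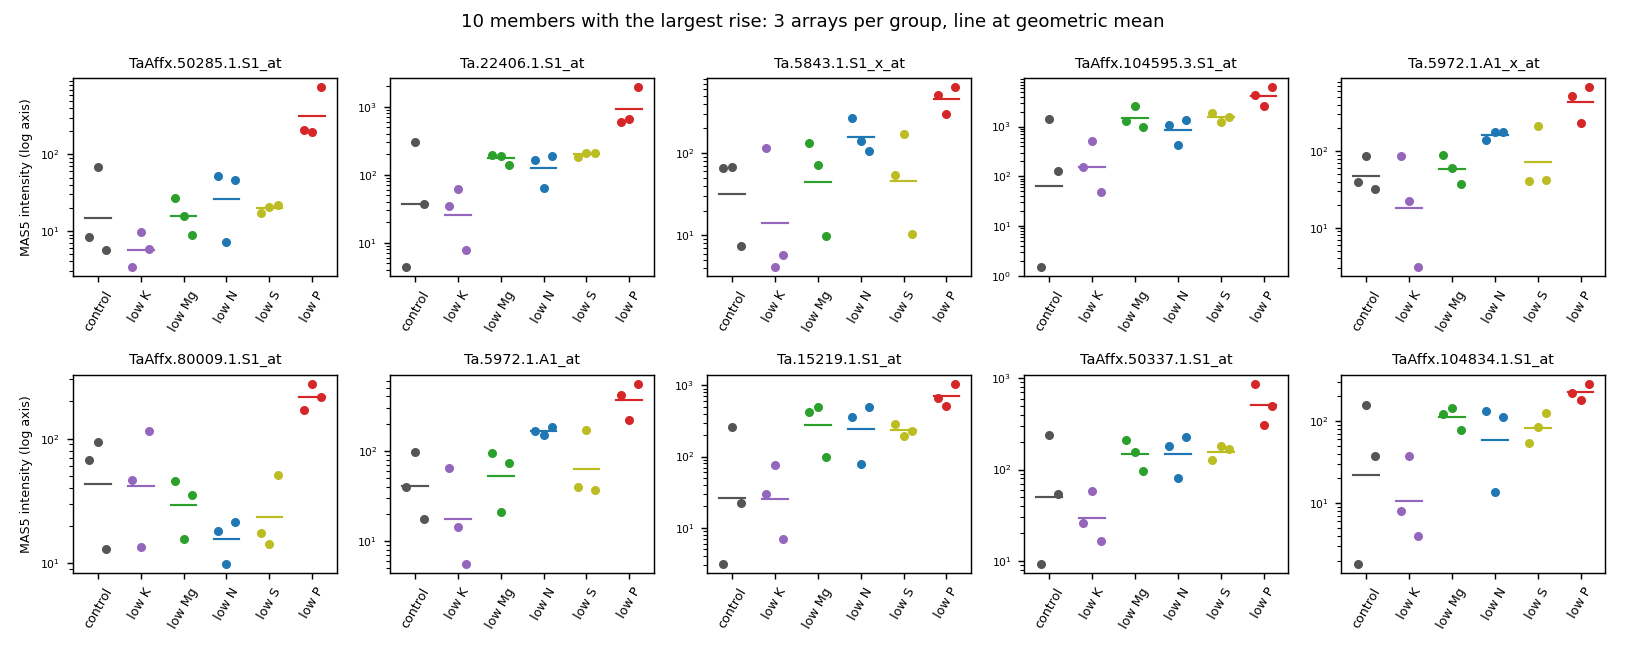
Intensity (log axis, MAS5 units) of the 10 members with the largest rise, by group, with 1 point per array in the order of replicates 1 to 3 and a line at the geometric mean. Outside low P the arrays of a group spread widely, as in TaAffx.104595.3.S1_at, whose control arrays run from 1.482 to 1413.

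The brightest members gave a different picture, with high levels in every group and smaller rises. After LOC543084 and LEA1 came Ta.226.1.S1_at, which read 12569, 11061 and 11953 in low P roots, 6063, 5305 and 4379 in the control, 6762, 7143 and 5485 in low N and 6721, 8584 and 6085 in low S roots. Its low K arrays were lower, at 4693, 3337 and 2938, and the low Mg arrays read 6703, 4225 and 5956. All 3 low P arrays of Ta.226.1.S1_at stood clear of the others, at a rise of 1.13 log2. Ta.13396.1.S1_at read 11491, 9298 and 12375 in low P roots and 1663 to 6825 (median 4868) elsewhere, a rise of 1.38. On the other probe sets of this root, none of them a member, low S array 1 was the highest of all arrays. On Ta.13396.2.S1_at it read 2975, against 2560, 1858 and 2657 in low P roots. The member of Rab15 was the fifth.

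Several members measure related sequences. The first part of an identifier is shared by probe sets designed from 1 cluster of related sequences, and the 102 members carried 91 such roots, 7 of which held more than 1 member (18 members in all). All 4 probe sets of Ta.4826 were members, with rises of 1.2 to 1.58 log2. On Ta.4826.2.S1_at the low P arrays read 5747, 4215 and 6127, the control arrays 1714, 1887 and 870.7 and the low K arrays 1859, 794.8 and 900.7, and the low Mg, low N and low S arrays lay between 1950 and 2778. Of the 5 probe sets of Ta.9063, 4 were members, and the other, Ta.9063.1.S1_x_at, read 8657, 6571 and 7562 in low P roots and at most 5692 elsewhere, and missed the rise threshold by a small margin. Members of 1 root are not independent observations of low P roots.

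The members' relatives on the array were mostly high in low P roots as well. Of 29 probe sets that share a root with a member without being one, the low P mean was above the mean of the other arrays in 27 (93.1%, against 54.0% of 34255 probe sets) and by 1 log2 or more in 15 (51.7%, against 2.02%). Their median difference was 1.02 log2. In 4 of the 29 (13.8%, against 1.91%) all low P arrays were above all others. They ranged from -0.23 log2 in Ta.12787.2.S1_a_at, which read 1277, 1034 and 950.3 in low P roots and 1099 to 1713 elsewhere, to 2.5 in TaAffx.104595.2.S1_at. The latter read 7721, 6401 and 14152 in low P roots, and low Mg array 2 at 7186 overlapped them. These counts describe probes of related sequence that may hybridise with the same transcripts.

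Although high in low P roots, few members were level among the other treatments. The other 15 arrays of a member spanned a median of 2.12 log2, and in 2 members they stayed within 1 log2 of each other. This range was not computed for all probe sets, and the rise threshold favours a wide one. It is therefore not read as a trait of the members. One of these, Ta.23758.1.S1_at, read 333, 499.7 and 284.3 in low P roots and between 114.5 and 197.8 on every other array. The other, Ta.28432.1.S1_at, read 802.6, 611.1 and 846.7 in low P roots and between 255.5 and 503.1 elsewhere. By this range, the 2 members come closest to a change in low P roots alone. The other probe set of the first root, Ta.23758.1.S1_x_at, read 302.4, 252.9 and 202.2 in low P roots. It overlapped other groups, with control array 2 at 245.4 and low S array 3 at 265.

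Outside low P, the members had a typical order of groups. Low N was the next highest group in 52 members (51.0%, against 28.4% of the 33692 probe sets tested), low S in 32 (31.4%, against 24.1%) and low Mg in 15 (14.7%, against 19.4%). Low K was the lowest group in 75 members (73.5%, against 29.2%) and the control in 16 (15.7%, against 17.4%), and neither low Mg nor low S was the lowest in any. Low K and then the control were the lowest groups in 60 members (58.8%, against 11.2%). The means of low Mg, low N and low S all lay above that of the control in 76 (74.5%, against 28.6%). The rule bounds the other 15 arrays only from above and favours none of the 5 groups, but a low array in any of them helps a probe set past the rise threshold.

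**Figure D3:**
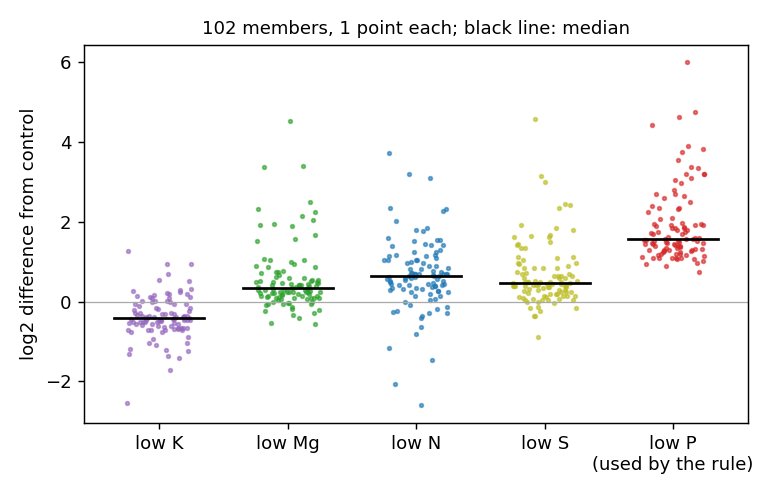
Log2 difference of each group mean from the control mean, with 1 point for each of the 102 members and a black line at the median. Low K points lie mostly below 0 and low Mg, low N and low S points mostly above; the low P points, 0.75 to 6.0, are shown for scale because the rule used them.

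Set array by array against the control, the order held in part. All 3 low N arrays lay above all control arrays in 37 members (36.3%, against 9.65% of tested probe sets) and below them in 5 (4.9%, against 6.34%). The same held upward for the low S arrays in 21 (20.6%, against 9.54%) and the low Mg arrays in 12 (11.8%, against 8.51%). The low K arrays lay all above or all below the control arrays in 0 members, against 5.64% and 6.73%. The test was limma's moderated test on log2 intensity over the 15 arrays, with Benjamini-Hochberg adjustment over 33692 probe sets and a call at an adjusted p under 0.05, and 101 members passed the filter on low values. The member that did not was TaAffx.50285.1.S1_at. The median log2 difference from control over the 101 tested members was -0.40 in low K, 0.35 in low Mg, 0.63 in low N and 0.46 in low S roots, while over all probe sets tested it was -0.02, 0.04, 0.03 and 0.04. Of the 101, 3 were called in low N (0.516% of all probe sets tested were called), 1 of them higher (0.104%) and 2 lower (0.413%). In low S 4 were called, all higher (0.0416% of all tested were higher and 0.0505% called in all), in low Mg 1, also higher (0.0623% and 0.0712%), and in low K 0 (0.273%). At an unadjusted p under 0.05, 12 members passed in low K (9.98% of all tested), 20 in low Mg (9.72%), 35 in low N (12.2%) and 28 in low S (14.0%).

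These medians depended on control array 3. Without it they were 0.04 in low Mg, 0.36 in low N and 0.20 in low S roots. Without control array 2 the members called in low S numbered 15 instead of 4, against 3.21% of all tested. The low S count was 1 without control array 3 or low S array 2 (0.0089% of all tested called in each) or low S array 3 (0.00297%), and 2 without low S array 1 (0.0178%). The low N count was 0 without low N array 1 (0.169%), 1 without low N array 2 (0.285%) or 3 (0.223%) and 5 without control array 2 (0.686%). It was 6 without low K array 1 (0.692%), which is outside this comparison but enters the pooled spread. The low Mg count was 0 without control array 3 or low Mg array 3 (0.00297% each) and 4 without control array 1 (0.116%) or 2 (0.427%). Without low K array 1, 12 members were called in low K, all lower than the control, where 0.84% of all probe sets tested were called and 0.528% called lower, and the low K median became -0.69.

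A moderated F-test asked whether the 5 groups other than low P differed. It called 14 of the 101 members (13.9%, against 4.71% of all tested), and the F-test among the 4 deficiencies without the control called 17 (16.8%, against 6.86%). Without low K array 1 these became 55 (5.66% of all tested called) and 58 (7.57%). Without control array 2 the first count was 30, while the share of all tested called was 9.76%. Without low K array 2 or 3, low Mg array 1 or 3, or any 1 array of low N or low S it was 6 to 8, and the share of all tested was 1.51% to 3.27%. The count among the deficiencies was 28 without control array 3 (8.17%), and without low K array 2 or 3 or a low N array it was 7 to 10 (2.34% to 3.63%). The rule's rise threshold favours spread among these same 15 arrays, and its intensity limit was not set for all tested probe sets. The members' shares called here and against the control are therefore not read as a trait of the members. The 14 also include all 4 members of Ta.9063, which are not independent.

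The clearest differences among the other groups lay in Ta.9063 and in Ta.13811.1.S1_at, which were also high in low S and, less so, in low Mg roots. On Ta.9063.2.A1_at the low P arrays read 4551, 2913 and 3388, the low S arrays 2280, 2274 and 2090 and the low Mg arrays 1941, 1415 and 1521. The control (893.9, 906.3 and 713.8), low K (931.2, 874.4 and 899.9) and low N (1089, 953.1 and 766.7) arrays lay together well below. In order of level this member thus ran from low P over low S and low Mg to the remaining groups, which overlapped. It rose by 1.41 ± 0.14 log2 in low S (adjusted p = 0.00169) and by 0.95 ± 0.14 in low Mg roots (adjusted p = 0.0231; SE, limma), while low N (0.15, adjusted p = 0.705) and low K (0.11, adjusted p = 0.825) did not pass. The low Mg call was lost without control array 3 or low Mg array 3 (adjusted p = 0.123 and 0.107). Ta.9063.2.A1_x_at rose by 1.33 ± 0.17 log2 in low S (adjusted p = 0.0137) and Ta.9063.3.S1_at by 1.5 ± 0.24 (adjusted p = 0.0469, limma), and their low Mg differences of 0.90 and 1.06 did not pass (adjusted p = 0.0712 and 0.218). The low S call of Ta.9063.2.A1_x_at was lost without control array 3, low S array 2 or low S array 3 (adjusted p = 0.0589, 0.0533 and 0.098), and that of Ta.9063.3.S1_at without control array 3 or any 1 low S array (adjusted p = 0.106 to 0.175). The fourth member of that root, Ta.9063.3.S1_x_at, stood at 1.11 log2 in low S roots (adjusted p = 0.0941).

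Ta.13811.1.S1_at, from another root, had the same order of groups. It read 2549, 1804 and 2200 in low P, 1048, 1088 and 1116 in low S and 996.7, 741.9 and 926.7 in low Mg roots. The control arrays read 606.9, 389.4 and 339.6, the low K arrays 491, 425.4 and 462.5 and the low N arrays 481.7, 472.2 and 345.5. It rose by 1.33 ± 0.19 log2 in low S roots (adjusted p = 0.0204, limma), and low Mg, at 1.03, did not pass (adjusted p = 0.0607). The low S call was lost without control array 3, low S array 2 or low S array 3, and without the intensity trend of the fit. In the F-test over 5 groups the adjusted p was 0.000218 for Ta.9063.2.A1_at, 0.00179 for Ta.13811.1.S1_at, 0.00264 for Ta.9063.2.A1_x_at and 0.0104 for Ta.9063.3.S1_at.

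Members that fell in low N roots ran against the common order. TaAffx.111546.1.S1_s_at read 57.06, 102.8 and 77.67 in low N roots against 466.1, 550.1 and 394.2 in the control and 1369, 1028 and 802 in low P roots. Low Mg (490.2, 303.9 and 509.8) and low S (568.5, 381.2 and 502.1) were near the control, and the low K arrays split into 194.9 against 652.3 and 760.8. It fell by 2.60 log2 (SE 0.40, adjusted p = 0.00891, limma; F-test 0.00629), and so was lowest in low N and highest in low P roots. Without low N array 1 the call was lost (adjusted p = 0.0578). Ta.24434.1.S1_at read 81.12, 102.8 and 86.44 in low N roots, 772.1, 334.1 and 209.1 in the control and 1093, 1079 and 775.9 in low P roots. Its low K arrays read 270.8, 420 and 689.6, its low Mg arrays 338.6, 207.6 and 253.1 and its low S arrays 325.9, 287.7 and 275.7. It fell by 2.07 log2 in low N (SE 0.39, adjusted p = 0.0314), while its highest control array nearly reached the lowest low P array. That call was lost without control array 1 (adjusted p = 0.0588) or any 1 low N array (adjusted p = 0.0679 to 0.118). The only member called higher in low N was Ta.5915.2.S1_at, at 168, 176.6 and 144.1 in low N roots, 84.02, 64.79 and 31.2 in the control and 277.8, 196.6 and 229.3 in low P roots (1.55 ± 0.32 log2, adjusted p = 0.048), a call lost without control array 2 or 3 or any 1 low N array (adjusted p = 0.051 to 0.163). Its relative Ta.5915.1.S1_x_at, no member, was higher in low N (4989, 4240 and 4553) than in low P roots (3924, 2563 and 3496). Its other relatives differed. By group mean, Ta.5915.1.S1_at (low P 5000, low N 4406) and Ta.5915.2.S1_x_at (211.7 and 160) were higher in low P roots. Ta.5915.3.S1_x_at was slightly higher in low N (low P 796, low N 837.1).

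**Figure D4:**
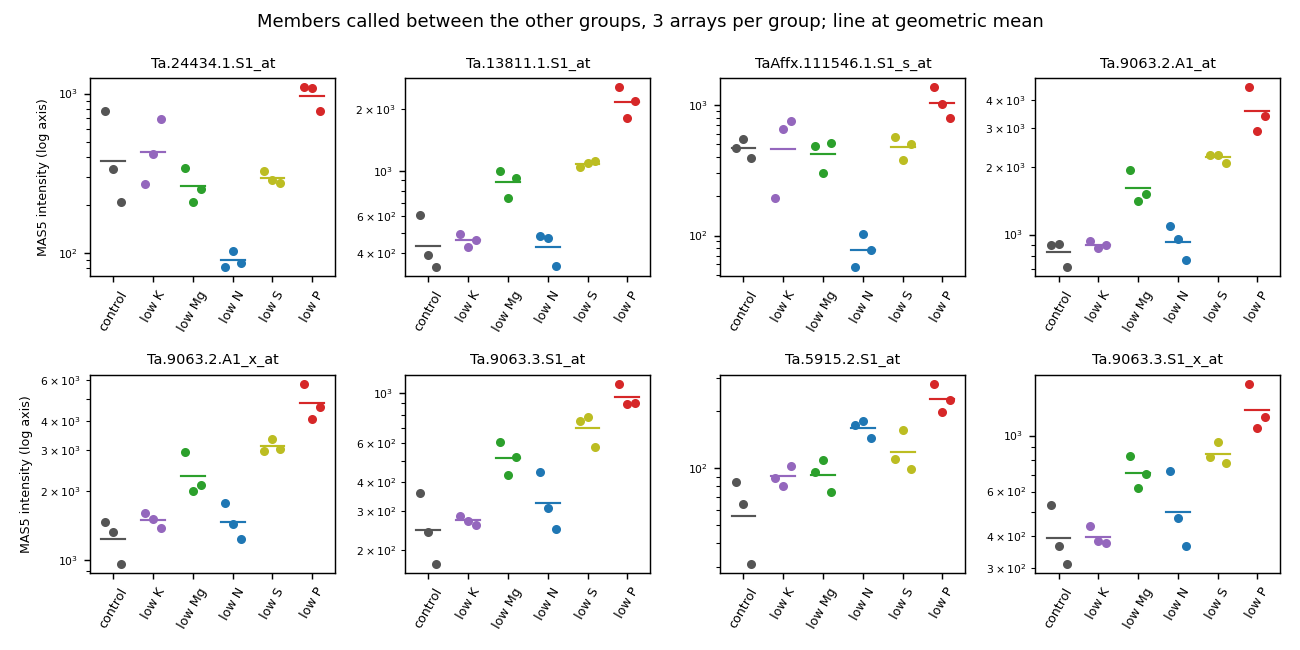
Intensity (log axis, MAS5 units) by group of the 7 members called between another group and the control and of Ta.9063.3.S1_x_at, which was called by the F-test and added after its values were seen; 1 point per array, line at the geometric mean. By group mean, low S and low Mg lie between low P and the rest in Ta.9063 and Ta.13811.1.S1_at, and low N lies lowest in TaAffx.111546.1.S1_s_at and Ta.24434.1.S1_at. On Ta.9063.3.S1_at and Ta.9063.3.S1_x_at, low N array 1 overlaps the low Mg arrays.

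Members varied more within groups than other probe sets. The SD between the 3 arrays of a group, on the log2 scale, had a median over members of 0.74 in low K, 0.58 in the control, 0.32 in low Mg, 0.30 in low P, 0.29 in low S and 0.21 in low N roots. Over all tested probe sets it was 0.17 to 0.22. The rule itself favours spread outside low P, because low arrays there help a probe set past the rise threshold. Its share in this difference was not tested. The wide spread came from the same arrays in many members. Control array 3 was the lowest control array in 81 members (79.4%, against 36.7%), low K array 1 the highest low K array in 67 (65.7%, against 32.8%) and low P array 2 the lowest low P array in 84 (82.4%, against 34.6%).

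This variation split many members into sets, formed after the values were seen and given no test. In 37 members low K array 1 lay over 1 log2 above both other low K arrays, which held for 0.944% of all tested probe sets. In 21 members control array 2 lay over 1 log2 above both other control arrays, which held for 2.63%. Both held for 3 members and neither for 47.

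The 37 members with high low K array 1 were bright, with a median low P intensity of 3384 and a median rise of 1.47 log2, and include Rab15 and LOC543396. On arrays of other groups many of them had the same order. Control array 3 was the lowest control array in 37 of the 37, low Mg array 1 the highest low Mg array in 35, low S array 2 the highest low S array in 34 and low P array 2 the lowest low P array in 35. Among the 281 tested non-members with the same low K pattern, these shares were 53.0%, 45.6%, 46.6% and 54.1%. Among the 47 members in neither set they were 83.0%, 63.8%, 42.6% and 68.1%, so the positions of control array 3 and low P array 2 were common to most members. Relative to the mean of the 15 arrays, the median of the set was 0.36 log2 on low K array 1 and -1.33 on both others, and 0.74, 0.64 and 0.65 on the low N arrays.

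The 21 members with high control array 2 include LOC543084 and 8 of the 10 largest rises. Their low P intensity was lower, with a median of 409.1, and their median rise was 2.24 log2. Their medians on the control arrays were -2.81, 0.96 and -1.16 log2 from the mean of the 15 arrays, and on the low P arrays 2.25, 1.86 and 2.62. Low N array 2 was the lowest low N array in 18 of the 21, low Mg array 3 the lowest low Mg array in 18 and low P array 3 the highest low P array in 18. Among the 866 tested non-members with the same control pattern, these shares were 36.1%, 37.6% and 34.1%. The largest rises thus belong mostly to this set. Its low control arrays 1 and 3 enter the mean of the 15 arrays and so enlarge the rise by calculation. LEA1 is in neither set, and the 47 members in neither had a median rise of 1.25 log2.

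**Figure D5:**
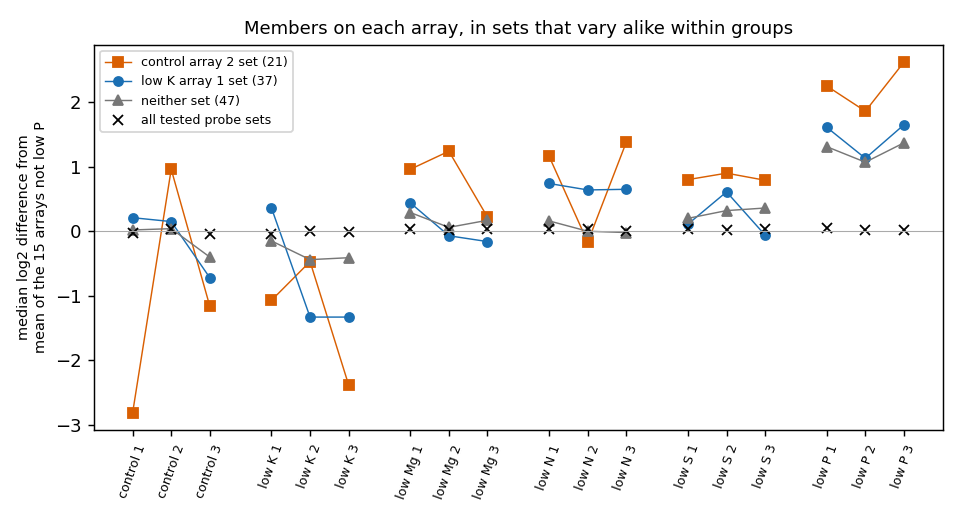
Median log2 difference of members from the mean of the 15 arrays that are not low P, for each of the 18 arrays, in the 21 members with high control array 2, the 37 with high low K array 1 (3 members are in both) and the 47 in neither; crosses are all tested probe sets. The sets differ in which arrays of a group are high, as in low N array 2, at -0.17 in the first set and 0.64 in the second.

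A word search for phosphate related genes among gene symbols and synonyms found 2, and neither is a member. Genes without a descriptive name, such as LOC543084 and LOC543396, could not be found in this way. PEAMT1, which methylates phosphoethanolamine on the way to phosphatidylcholine and thus makes a membrane phospholipid, was lower in low P roots than in the control, at -0.74 ± 0.12 log2 (adjusted p = 0.00218, limma), where 9.51% of 34255 probe sets were called. The call was lost when only the 6 arrays of both groups were fitted (adjusted p = 0.0523). ALMT1, a malate transporter of root tips known for aluminium tolerance, stood at 50.3, 86.05 and 61.34 in low P roots and 78.41, 54.57 and 56.13 in the control (0.05 ± 0.45 log2, adjusted p = 0.959), a difference whose sign varied from -0.18 to 0.23 log2 over the alternatives.

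The trimmed mean of intensities was 500.1 on each array and array medians ran from 53.3 to 72.4. The ratio of 5′ to 3′ signal of the ubiquitin control probes, a measure of RNA integrity, was 1.094 to 1.118 on the low P arrays and 1.148 to 1.315 on the other 15, so it moved with low P, and its part in the members' levels was not tested. The same ratio for glucose-6-phosphate dehydrogenase, 0.04357 to 0.05271 on the low P arrays, lay inside the range of the others. None of the marker genes of green tissue (4 genes, 33 probe sets), grain (9 genes, 18 probe sets) or root (2 genes, 3 probe sets) was a member. Summed intensity of the green tissue markers was 29959 to 41691 on the low P arrays, 37671 to 47873 on the control arrays and 33470 to 39181 on the low N arrays, and that of the root markers was 287.6 to 359.5 in low P and 241.1 to 449.1 in the control. The root label rests on few markers, and their part in the members' levels was not tested.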

How the data were processed

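Each deposited value is the linear intensity of 1 probe set on 1 array, made by the authors with Affymetrix Expression Console and MAS5, per the submitters' processing notes. Software versions and the scaling target are not known from these sources. Per the labels, 500 ng of total RNA went into each labelling. Of 61290 probe sets, 111 array controls were left out. Intensities were taken to log2 with no added constant. The members and gene lists were chosen with earlier results of these data known.

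Group means were fitted to the 15 arrays that are not low P with limma 3.58.1 in R 4.3.3 (lmFit, eBayes with an intensity trend, 10 residual degrees of freedom), over 33692 probe sets at or above their own array's median on at least 3 of the 15 arrays. Tests are two-sided with Benjamini-Hochberg adjustment. PEAMT1, ALMT1 and the Rab15 non-members were taken from a fit to all 18 arrays and 34255 probe sets. The fit was tested on simulated data.

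Named were all members with a gene and that gene's other probe sets, the 10 largest rises, the 5 brightest, 3 on each side of each threshold, up to 3 called per direction and comparison, the 5 smallest F-test p-values and called phosphate genes. Names came from the platform annotation, with 770 of 771 genes matched to RefSeq (IWGSC CS RefSeq v2.1). Other probe sets were chosen after their values were seen. Alternatives were quantile and 75th percentile scaling, no filter, no trend, log2(value + 16), all 18 arrays, a replicate block and each array left out. Replicate numbers showed no general pairing of the samples over all tested probe sets. Figures were drawn with matplotlib 3.10.9. The number of arrays limits the precision.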

Additional observations from a re-analysis of the deposited data

Results flagged for a closer look

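By limma's moderated F-test among low K, low Mg, low N and low S roots, with p-values adjusted over 33692 probe sets, 17 of 101 members were called (16.8%, against 6.86% of all tested). The rise threshold favours spread among these arrays, so this share is not read as a trait of the members. The values of 8 of the 17 are given here, and the remaining 9 had an adjusted p of 0.0191 to 0.0493. The adjusted p was 0.000329 for Ta.9063.2.A1_at, 0.00478 for Ta.9063.2.A1_x_at, 0.0139 for Ta.9063.3.S1_at and 0.00188 for Ta.13811.1.S1_at, all of them higher in low S and low Mg than in low K and low N roots by group mean. It was 0.00393 for TaAffx.111546.1.S1_s_at and 0.0155 for Ta.24434.1.S1_at, both lowest in low N roots. It was 0.0277 for Ta.226.1.S1_at and 0.0314 for LOC543084 (Ta.727.1.S1_x_at), both lowest in low K roots.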

How the results depend on the processing

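The rule gave 299 probe sets with a rise of 0.5 log2, 42 with 1.5, and 97 to 274 with 1 array left out (274 without low P array 2). With 1 array left out, 0 to 12 members were called in low K (0.0208% to 0.84% of all tested) and 0 to 4 in low Mg (0.00297% to 0.427%). In low N the count ran from 0 to 6 (0.169% to 0.692%) and in low S from 1 to 15 (0.00297% to 3.21%). The F-test over 5 groups then called 6 to 55 members (1.51% to 9.76%) and that over 4 groups 7 to 58 (2.34% to 10.1%). Without the intensity trend, 0 were called in low Mg (0.00297%) and in low N (0.119%), and 1 in low S (0.00297%). The F-tests over 5 and 4 groups then called 5 (1.34%) and 7 (2.53%). With no filter the F-test over 5 groups called 9 (1.58%). Over all tested probe sets, correlations of 45 same-numbered pairs ran from -0.107 to 0.167. Of 18 arrays, 5 correlated best with their own number. Replicate numbers thus showed no general pairing, while pairing in only part of the probe sets was not tested. With the replicate block, 2 members were called in low Mg (0.0594% of all tested). The F-test over 5 groups then called 21 (4.56%) and that over 4 groups 30 (7.21%). Members' median differences with 1 array left out ran from -0.69 to -0.25 in low K, 0.04 to 0.48 in low Mg, 0.36 to 0.75 in low N and 0.20 to 0.65 in low S. With only 6 arrays in the fit, 0 phosphate genes were called. Of 201 repeats of the 12 called tests of named members, 171 kept the call, 30 lost it and 0 changed direction. ALMT1, not called, had a negative difference in 4 of 11 alternatives, down to -0.18 log2. The low S call of Ta.9063.2.A1_at and the F-test calls of the 5 named members held in every alternative, whereas of 13 alternatives the call was lost in 8 for Ta.5915.2.S1_at and 6 for Ta.24434.1.S1_at in low N (with the replicate block too, adjusted p = 0.0505), 2 for TaAffx.111546.1.S1_s_at in low N, 7 for Ta.9063.3.S1_at and 4 for Ta.9063.2.A1_x_at in low S and 3 for Ta.9063.2.A1_at in low Mg. The cause of these changes was not tested beyond the loss of arrays.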
